A study of Mus musculus with 4 samples.

Results

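The 7 genes described here, Hlf, Mecom, Prdm16, Meis1, Hoxa9, Hoxb5 and Mllt3, encode transcription regulators that are restricted to long-term haematopoietic stem cells or required in them. They were chosen by name, all 7 are in the deposited table, and all 7 passed the filter on low values, of 9244 genes with library values. Expression was measured by RNA sequencing in stem cells of mice that lack Sin3B, the scaffold of a histone deacetylase complex, and in wild-type (WT) stem cells. The comparison asks which genes Sin3B regulates in these cells, and what happens to the 7 regulators when it is lost.

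Sin3B KO cells (2 libraries) and WT cells (2 libraries) came from mice of strain C57BL/6, aged between 8 and 12 weeks. Both were sorted from the LSK population (lineage-negative, Sca-1-positive, Kit-positive) as cells without CD34 and Flk2. The labels give neither the Cre driver nor the time of deletion, and they do not say whether libraries of one genotype stem from separate animals. The p-values therefore rest on a spread between libraries that may be only technical. Library totals over the listed genes were 12637960 and 13700630 reads for Sin3B KO and 9950979 and 11754067 reads for WT. Values are read counts that the authors scaled by 1 size factor per library, called normalised read counts here.

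A stem cell divides rarely and must keep its identity when it does, and this is held by a small set of DNA-binding proteins. Hlf is a PAR bZIP factor whose expression falls as stem cells differentiate. Mecom and Prdm16 encode related zinc finger proteins that can carry a PR domain. Meis1, a TALE homeodomain protein, binds DNA together with Hox proteins such as Hoxa9. Hoxb5 marks long-term stem cells in mouse marrow. Mllt3, also called AF9, reads acylated histones and links the super elongation complex and the methyltransferase Dot1l to active genes. Loss of Mecom, Prdm16 or Meis1 in mice depletes stem cells, and forced expression of Hoxa9 with Meis1 causes leukaemia.

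RefSeq promoter sequences were found for 6 of the 7 genes. Below are the 250 bases before the transcription start (assembly GRCm38.p6, all on the minus strand, written 5′ to 3′ along the gene). They are shown for the genes with the largest differences between genotypes (Hlf and Prdm16), for the most abundant gene (Meis1) and for both starts of Mecom. Capitals mark matches, on either strand, to the GC box (GGGCGG), the Ets motif (CCGGAAG), the Meis motif (TGACAG), the E-box of Tal1 and E-proteins (CAGCTG), the E-box of Myc, Max and Mxd (CACGTG) or the cell cycle homology region (TTTGAA).
Hlf, chr11:90390918-90391167: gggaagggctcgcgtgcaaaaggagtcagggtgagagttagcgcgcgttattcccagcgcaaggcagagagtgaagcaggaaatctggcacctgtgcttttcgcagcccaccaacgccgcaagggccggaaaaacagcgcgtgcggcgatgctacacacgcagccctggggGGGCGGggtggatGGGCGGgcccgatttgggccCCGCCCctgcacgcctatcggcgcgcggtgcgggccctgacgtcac
Prdm16, chr4:154636874-154637123: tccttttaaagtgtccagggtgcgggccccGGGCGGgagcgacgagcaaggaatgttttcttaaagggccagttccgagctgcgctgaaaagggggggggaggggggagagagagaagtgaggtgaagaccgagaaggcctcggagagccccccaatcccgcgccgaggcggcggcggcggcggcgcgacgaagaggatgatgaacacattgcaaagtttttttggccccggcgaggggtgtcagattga
Meis1, chr11:19018970-19019219: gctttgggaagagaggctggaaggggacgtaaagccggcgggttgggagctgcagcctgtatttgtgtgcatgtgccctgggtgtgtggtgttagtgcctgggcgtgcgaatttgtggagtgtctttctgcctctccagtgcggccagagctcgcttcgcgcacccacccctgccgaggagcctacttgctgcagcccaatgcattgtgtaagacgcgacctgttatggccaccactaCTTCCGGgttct
Mecom, distal start, chr3:30509760-30510009: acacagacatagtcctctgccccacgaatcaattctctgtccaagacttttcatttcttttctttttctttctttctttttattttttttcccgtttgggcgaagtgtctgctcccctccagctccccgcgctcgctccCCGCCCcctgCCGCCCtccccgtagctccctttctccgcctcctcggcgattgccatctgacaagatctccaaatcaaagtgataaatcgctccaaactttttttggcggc
Mecom, proximal start, chr3:30013205-30013454: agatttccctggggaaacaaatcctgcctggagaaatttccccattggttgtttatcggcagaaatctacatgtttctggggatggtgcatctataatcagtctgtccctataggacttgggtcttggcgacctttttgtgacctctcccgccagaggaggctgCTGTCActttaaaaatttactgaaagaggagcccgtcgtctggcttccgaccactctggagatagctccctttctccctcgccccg

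The Hlf promoter holds 3 GC boxes and the Prdm16 promoter 1, and neither holds another of these motifs. The GC box occurs in 32.7% of 32851 mouse promoter windows of this length. Meis1 has 1 Ets motif, found in 6.91% of windows, with its first base at -12. The distal Mecom window has 2 GC boxes and the proximal one 1 Meis motif, which 15.9% of windows contain. None of these 5 windows holds CACGTG, the E-box of the Mxd proteins that recruit Sin3 complexes, which 6.02% of windows contain, and no match in a window says nothing of binding elsewhere. The GC content was 67.2% for Hlf, 62.4% for Prdm16 and 59.6% for Meis1, and 50.8% and 50.4% for the distal and proximal Mecom windows. The median over all windows was 52.4%, with quartiles of 45.2% and 61.2%. The distal start of Mecom gives the longer MDS1-EVI1 protein, which has the PR domain, and the proximal one gives EVI1. The deposited counts are per gene and do not separate them.

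Sin3b itself was at 755.4 and 646.5 in Sin3B KO cells, against 1522 and 1825 in WT cells, so the labels and the targeted gene go together although reads of the gene remained in KO libraries. The log2 fold change was -1.25 (SE 0.22) and was not called (adjusted p = 0.548 by limma with Benjamini-Hochberg adjustment). Markers of long-term stem cells summed to 58748 and 68453 in Sin3B KO libraries and 60746 and 63628 in WT libraries, with 11 of 12 genes in the table. Neutrophil and monocyte markers (12 of 12) summed to 54139 and 24330 in Sin3B KO, against 76571 and 14729 in WT. B lineage markers (6 of 10) summed to 4465 and 1703 in Sin3B KO, against 3809 and 1503 in WT. Erythroid markers (8 of 10) summed to 18070 and 7010 in Sin3B KO, against 8013 and 5313 in WT, with Slc4a1 at 0 in WT 2. In both genotypes these neutrophil and monocyte, B lineage and erythroid sums were higher in library 1. Of the 8 erythroid genes, 3 were lower in WT 1 than in WT 2, among them Car1 (2847 against 3353) and Gata1 (1004 against 1063). In Sin3B KO, Car1 was at 10488 and 3984 and Gata1 at 3144 and 1842. All 8 had a log2 fold change of Sin3B KO over WT above 0, as did 53.4% of all genes, and 0 passed. Megakaryocyte markers (6 of 8) summed to 7328 and 7098 in Sin3B KO, against 11242 and 5751 in WT, and T and NK markers (2 of 6) to 2627 and 1361 in Sin3B KO, against 1914 and 1190 in WT. Mast cell markers (2 of 6) summed to 606 and 412 in Sin3B KO, against 2288 and 74.2 in WT, and endothelial and stromal markers (3 of 7) to 3417 and 1679 in Sin3B KO, against 2254 and 1698 in WT. Multipotent progenitor markers (6 of 6) summed to 10175 and 8105 in Sin3B KO, against 12038 and 8551 in WT. Their median log2 difference (library 1 minus 2) was 0.68 in Sin3B KO and 2.07 in WT, with 1 of the 6 lower in library 1 in each genotype. Flt3 (Flk2) was at 830 and 354 in Sin3B KO, against 1170 and 372 in WT. The T cell marker Il7r was at 0 in WT 2. Immediate early genes (9 of 10), which cell handling induces, summed to 6303 and 11659 in Sin3B KO, against 6971 and 21603 in WT. The part of these marker differences in the results below was not tested. In bulk RNA, fewer cells of a type and less RNA per cell cannot be told apart.

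**Figure D1:**
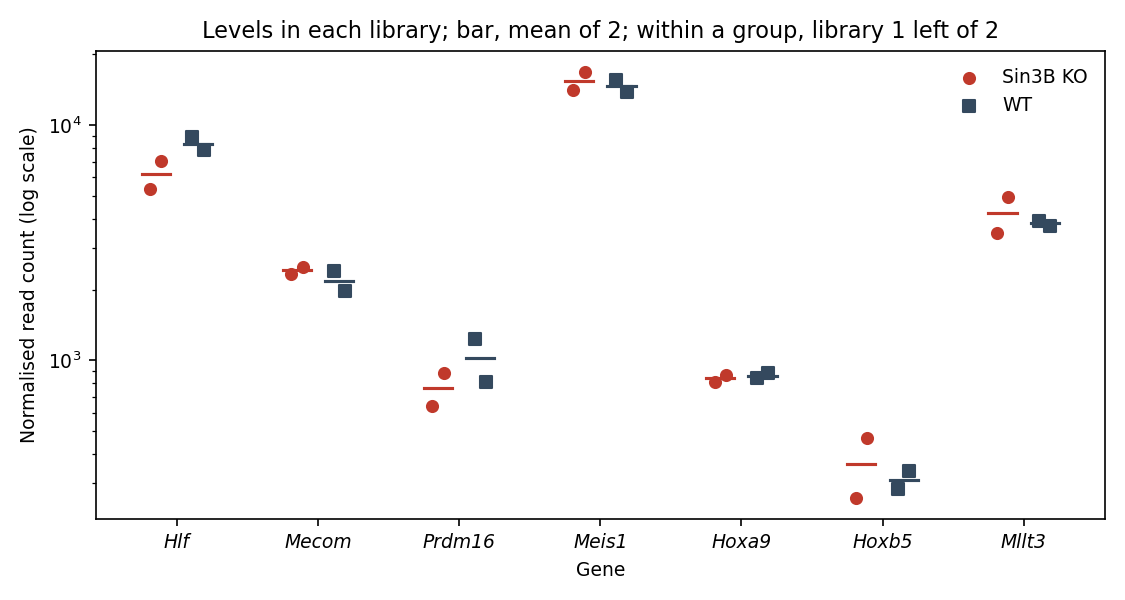
Normalised read count (log scale) of each gene in every library, with Sin3B KO in red circles, WT in dark squares and a bar at the mean of the 2 libraries of a group. Hlf is the gene whose groups do not overlap, with its higher Sin3B KO value at 7054 and its lower WT value at 7805.

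All 7 genes were read in every library, over a wide range. Meis1 was the most abundant, ranking 37 of 9244 genes by mean count, followed by Hlf at rank 151 and Mllt3 at rank 454. Mecom ranked 1145, Prdm16 3818, Hoxa9 3965 and Hoxb5 7044. Counts per kilobase of annotated exon allow a rough comparison of different genes. The length used joins the exons of all annotated transcripts and can exceed that of the transcript expressed. On this scale Meis1 averaged 1468 ± 181 in Sin3B KO and 1395 ± 118 in WT (SD, n = 2 each). Hlf followed at 929 ± 180 in Sin3B KO and 1248 ± 114 in WT. In WT cells Meis1 and Hlf were closer to each other than their SDs together, and in Sin3B KO cells they lay further apart than that. Mllt3 was at 351 ± 87.3 counts per kilobase in Sin3B KO and 319 ± 9.95 in WT, and Mecom at 195 ± 9.23 in Sin3B KO and 176 ± 24.9 in WT. Hoxa9 was at 150.3 ± 6.94 counts per kilobase in Sin3B KO and 154 ± 5.86 in WT. Hoxb5, at 131 ± 52.5 in Sin3B KO and 112 ± 14.0 in WT, and Prdm16, at 81.7 ± 18.5 in Sin3B KO and 109.5 ± 32.1 in WT, were the lowest per kilobase. In both genotypes the values per kilobase of Hoxb5 and Prdm16 differed by less than their SDs together. The same held for Hoxa9 and Hoxb5 in Sin3B KO and for Mecom and Hoxa9 in WT.

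None of the 7 genes passed the test between Sin3B KO and WT cells, and 5 of them differed by less than 0.20 on the log2 scale. Hlf and Prdm16 had the largest differences, both towards lower values in Sin3B KO. Of all 9244 genes tested, 0 passed (0% called; limma, Benjamini-Hochberg adjusted p under 0.05). Before adjustment, 824 genes (8.91%) had a p under 0.05, none of the 7 among them. In some alternatives that kept all 4 libraries, Hlf was among such genes. Its unadjusted limma p was 0.0326 with equal totals and 0.0136 after quantile normalisation. Of all genes, 257 were higher and 608 lower at a p under 0.05 with equal totals. After quantile normalisation 296 were higher and 362 lower. Without WT 2 the log2 fold change was -0.53 for Hlf and -0.71 for Prdm16. The median log2 fold change of the 7 was 0.07, against 0.03 over all genes tested. It was 0.20 without Sin3B KO 1, -0.14 without Sin3B KO 2, -0.015 with equal totals and -0.070 after quantile normalisation. Of the 7, 4 were above 0 and 3 below, where 53.4% of all genes were above and 46.6% below. Over all genes, unadjusted 95% intervals had a median half-width of 0.60 (log2), which is 1.51-fold.

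Hlf, the bZIP factor, had 5353 and 7054 normalised counts in Sin3B KO libraries, against 8877 and 7805 in WT libraries. Both Sin3B KO values lie below both WT values. The mean was 6204 ± 1202 in Sin3B KO and 8341 ± 758 in WT (SD, n = 2 each), a log2 fold change, on the log2(value + 1) scale, of -0.44 (SE 0.21, 95% interval -0.91 to 0.03), which is 1.35-fold lower. The difference did not pass (limma, unadjusted p = 0.0642, Benjamini-Hochberg adjusted p = 0.550). A log2 difference at least this large in either direction was found in 26.1% of all genes tested. In the authors' deposited table Hlf has a log2 fold change of -0.37 with an unadjusted p of 0.0416 and an adjusted p of 0.512. That table calls 31 of 9796 genes (0.316%) at an adjusted p under 0.05, none of the 7 among them, and 9.5% of its genes have an unadjusted p under 0.05, Hlf alone of the 7. With each library left out in turn, the log2 fold change of Hlf ranged from -0.64 to -0.24. Its sign could not change there, because the groups do not overlap. Of its PAR bZIP relatives, only Tef is in the table, at 306 and 672 in Sin3B KO, against 453 and 945 in WT.

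Prdm16, the PR domain factor, had 640.1 and 883.7 normalised counts in Sin3B KO and 1233 and 809.1 in WT. The groups overlap, because Sin3B KO 2 lies above WT 2. The log2 fold change was -0.41 (SE 0.28, 95% interval -1.05 to 0.23; limma, Benjamini-Hochberg adjusted p = 0.617). The difference was -0.11 without WT 1, the library in which the gene was highest, and -0.71 without WT 2. A gene on the opposite strand, B230104I21Rik, overlaps exons of Prdm16 in the GENCODE M21 annotation. Whether the counting used strand is not given in the sources used here, so reads of such pairs cannot be told apart.

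Mecom had 2338 and 2501 normalised counts in Sin3B KO and 2405 and 1967 in WT, with overlapping groups. Its log2 fold change was 0.15 (SE 0.20, 95% interval -0.30 to 0.61; limma, Benjamini-Hochberg adjusted p = 0.781). It ranged from 0.01 to 0.30 with each library left out. An antisense gene, Mecomos, overlaps its exons. Of the PR domain relatives of Mecom and Prdm16, 5 of 9 are in the table, and 0 passed, with 1 above 0 and 4 below. Prdm2, a histone methyltransferase of this family, was at 866.9 and 1112 in Sin3B KO, against 1636 and 1018 in WT. Prdm15 was at 446.9 and 454.8 in Sin3B KO, against 431.0 and 397.6 in WT. Prdm4 was at 142.2 and 179.2 in Sin3B KO, against 261.1 and 498.5 in WT (log2 fold change -1.17, limma, unadjusted p = 0.0202, Benjamini-Hochberg adjusted p = 0.548).

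Meis1 was close to equal in both genotypes, with 14106 and 16807 normalised counts in Sin3B KO and 15578 and 13815 in WT. Each group holds a value on either side of the mean of the other. The log2 fold change was 0.07 (SE 0.20, 95% interval -0.38 to 0.52; limma, Benjamini-Hochberg adjusted p = 0.912). Its sign turned to -0.015 when libraries were scaled to equal totals and to -0.081 after quantile normalisation. Meis1 exons overlap Gm16140 on the opposite strand and Gm37818 on the same strand. Among the TALE partners, 6 of 10 are in the table, 0 passed, and 5 of the 6 were below 0 (median log2 fold change -0.15). The median was -0.050 without WT 2, with 3 of 6 below 0, and -0.36 without WT 1. Tgif1, a TALE repressor, was at 1486 and 1527 in Sin3B KO, against 1736 and 1482 in WT. Tgif2 was at 204.7 and 189.1 in Sin3B KO, against 294.2 and 423.3 in WT (log2 fold change -0.84, limma, unadjusted p = 0.0392, Benjamini-Hochberg adjusted p = 0.548).

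Hoxa9 was the most even of the 7, with 811.2 and 865.9 normalised counts in Sin3B KO and 838.0 and 884.2 in WT. The highest library was 1.09 times the lowest. The log2 fold change was -0.04 (SE 0.22, 95% interval -0.53 to 0.45; limma, Benjamini-Hochberg adjusted p = 0.957), and it was 0.0085 without Sin3B KO 1. The microRNA gene Mir196b overlaps its annotated exons on the same strand.

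Hoxb5 was the least abundant by count, with 261.4 and 468.2 normalised counts in Sin3B KO and 283.9 and 339.3 in WT. Both WT values lie between the Sin3B KO values. The log2 fold change was 0.17 (SE 0.36, 95% interval -0.64 to 0.99; limma, Benjamini-Hochberg adjusted p = 0.875), the widest interval of the 7. Leaving out Sin3B KO 2 turned it to -0.25, and leaving out Sin3B KO 1 gave 0.59. The antisense gene Hoxb5os overlaps Hoxb5. Of the other 34 Hox genes listed, 6 are in the table, namely Hoxa3, Hoxa5, Hoxa7, Hoxa10, Hoxb3 and Hoxb4. None of the 6 passed, 5 were below 0 and the median log2 fold change was -0.08, which became 0.14 without Sin3B KO 1. Hoxa10, the neighbour of Hoxa9, was at 618.0 and 870.4 in Sin3B KO, against 657.9 and 862.5 in WT. Hoxa7 was at 442.1 and 627.8 in Sin3B KO, against 499.4 and 601.4 in WT.

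Mllt3 had 3475 and 4958 normalised counts in Sin3B KO and 3910 and 3741 in WT, with both WT values between the Sin3B KO values. The log2 fold change was 0.12 (SE 0.22, 95% interval -0.38 to 0.61; limma, Benjamini-Hochberg adjusted p = 0.853). It was -0.14 without Sin3B KO 2 and 0.37 without Sin3B KO 1. Of the elongation, Dot1l and menin partners, 12 of 15 are in the table and 0 passed, with 4 above 0, 8 below and a median of -0.26. That median was -0.12 without Sin3B KO 1, -0.15 without WT 2 and -0.0020 for the 7 genes with a mean of at least 500. Mll1, the methyltransferase that upholds Hoxa9 expression, was at 3670 and 4078 in Sin3B KO, against 4782 and 4581 in WT. Men1, which encodes menin, was at 2385 and 2325 in Sin3B KO, against 2150 and 2586 in WT. Mllt6 was at 138.4 and 201.5 in Sin3B KO, against 288.5 and 471.8 in WT (log2 fold change -1.14, limma, unadjusted p = 0.0187, Benjamini-Hochberg adjusted p = 0.548). The elongation factor Ell2 was at 226.8 and 239.9 in Sin3B KO, against 338.6 and 449.0 in WT (log2 fold change -0.74, limma, unadjusted p = 0.0457, Benjamini-Hochberg adjusted p = 0.548).

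**Figure D2:**
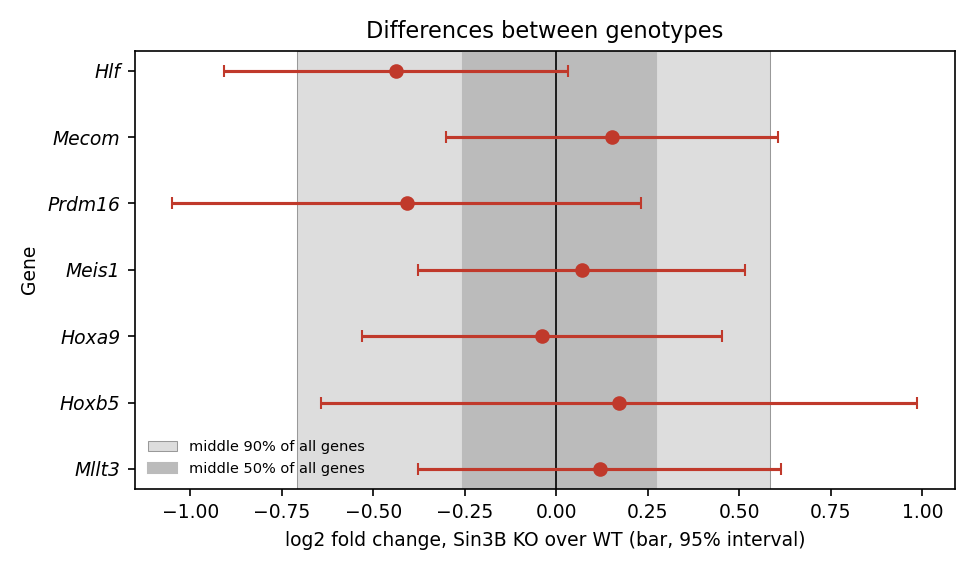
Log2 fold change of Sin3B KO over WT for each gene (point) with its 95% interval from limma (bar), over bands that hold the middle 50% and 90% of all 9244 genes. All 7 intervals include 0, and all 7 points lie inside the 90% band, which runs from -0.71 to 0.58.

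The groups did not overlap for 1 of the 7 genes, Hlf. Over all genes tested the groups did not overlap in 44.1%, with Sin3B KO lower in 19.4% and higher in 24.7%, so 1 of 7 is not above the background. Within Sin3B KO, all 7 genes were lower in library 1 than in library 2, with log2 differences (library 1 minus 2) from -0.84 for Hoxb5 to -0.09 for Hoxa9. Over all genes 50.3% were lower in Sin3B KO 1. Within WT, 2 of the 7 genes, Hoxa9 and Hoxb5, were lower in library 1, against 54.6% of all genes, and the median difference of the 7 was 0.17 higher in WT 1. The difference between the 2 Sin3B KO libraries of these 7 genes had a median of -0.40 (library 1 minus 2), which is larger than the genotype difference of 5 of them. Apart from long-term stem cell markers and immediate early genes, the marker sums given above were higher in library 1 of both genotypes. Long-term stem cell markers were lower in library 1 for 10 of 11 genes in Sin3B KO and for 9 of 11 in WT. Of the 7 regulators, 5 were lower in library 1 of Sin3B KO alone. These differences between libraries were not tested.

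**Figure D3:**
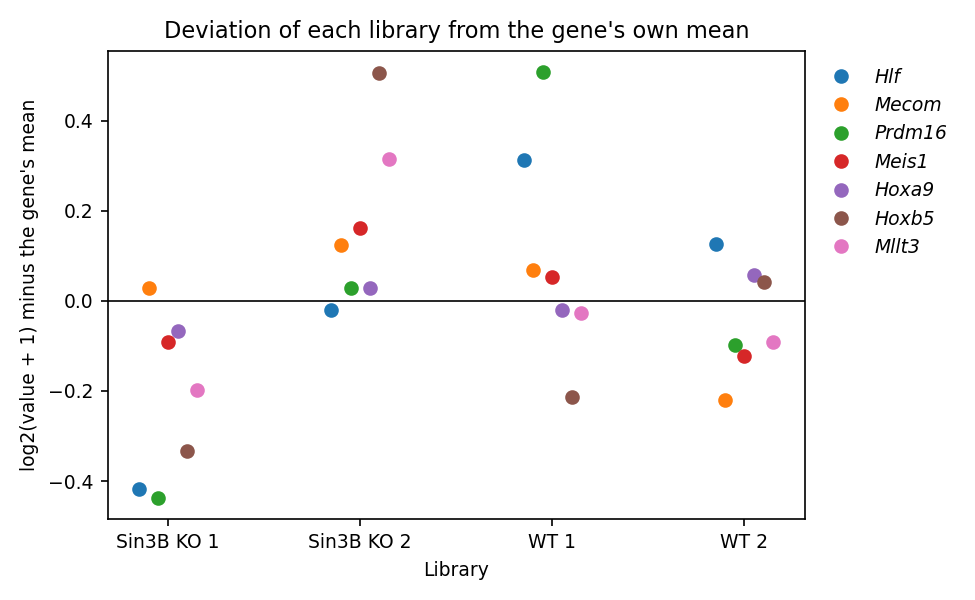
Deviation of each library from the gene's own mean, as log2(value + 1), for the 7 genes in the 4 libraries. All 7 points of Sin3B KO 1 lie below those of the same gene in Sin3B KO 2, and Prdm16 and Hlf are highest in WT 1.

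**Figure D4:**
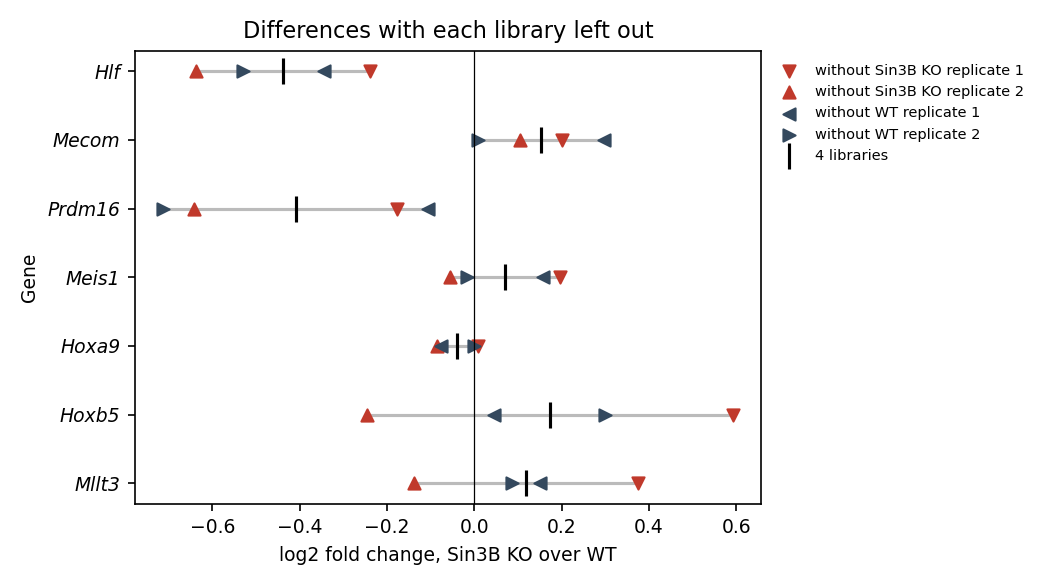
Log2 fold change of Sin3B KO over WT with all 4 libraries (black tick) and with each library left out (triangles). Without Sin3B KO 2, 6 of the 7 genes lie below 0, and without Sin3B KO 1, 5 of the 7 lie above 0. Hlf and Prdm16 stay below 0 in each case, which for Hlf follows from groups that do not overlap.

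A list of 31 other transcription regulators known from stem cells was chosen with earlier results of these data known. Any lean of the list is therefore no test, and it includes the immediate early gene Egr1. The list gave 28 genes in the table, and none passed, with 22 below 0 and 6 above. Their log2 fold changes had a median of -0.36, against 0.03 over all genes. The groups did not overlap in 14 of them, 12 lower and 2 higher in Sin3B KO, where the share of all genes was 44.1%, 19.4% lower and 24.7% higher. Before adjustment, 5 of them were lower and 0 higher at a p under 0.05, where 3.95% of all genes were lower and 4.97% higher. These shares of all genes depend on scaling. Of the 824 genes, 459 were higher and 365 lower, whereas 257 were higher and 608 lower with libraries scaled to equal totals. The median of the list was between -0.45 and -0.23 under every alternative run, and 1 of its genes was lower at an unadjusted p under 0.05 without Sin3B KO 1.

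The 5 were Myb, Lmo2, Runx1, Cited2 and Bmi1. Cited2, a CBP and p300 cofactor needed for stem cell maintenance, was at 415.2 and 435.2 in Sin3B KO, against 737.7 and 828.8 in WT (log2 fold change -0.88, limma, unadjusted p = 0.00556, Benjamini-Hochberg adjusted p = 0.548). Bmi1, a Polycomb protein that represses Cdkn2a, was at 173.0 and 286.3 in Sin3B KO, against 393.4 and 490.6 in WT (log2 fold change -0.98, limma, unadjusted p = 0.0222, Benjamini-Hochberg adjusted p = 0.548). In both genes the groups lie apart. Lmo2, a bridging protein of the Tal1 complex, was at 2952 and 3916 in Sin3B KO, against 4510 and 6289 in WT (log2 fold change -0.65, limma, unadjusted p = 0.0227, Benjamini-Hochberg adjusted p = 0.548). Runx1, the core binding factor, was at 822.7 and 960.4 in Sin3B KO, against 1196 and 1515 in WT (log2 fold change -0.60, limma, unadjusted p = 0.0276, Benjamini-Hochberg adjusted p = 0.548). Myb, which drives progenitor proliferation, was at 4235 and 3878 in Sin3B KO, against 5907 and 5197 in WT (log2 fold change -0.45, limma, unadjusted p = 0.0391, Benjamini-Hochberg adjusted p = 0.548). None of the 5 is called. The most abundant of the list were the Ets factors Fli1, at 6268 and 7908 in Sin3B KO, against 8436 and 6635 in WT, and Etv6, at 4446 and 5571 in Sin3B KO, against 5683 and 6960 in WT.

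**Figure D5:**
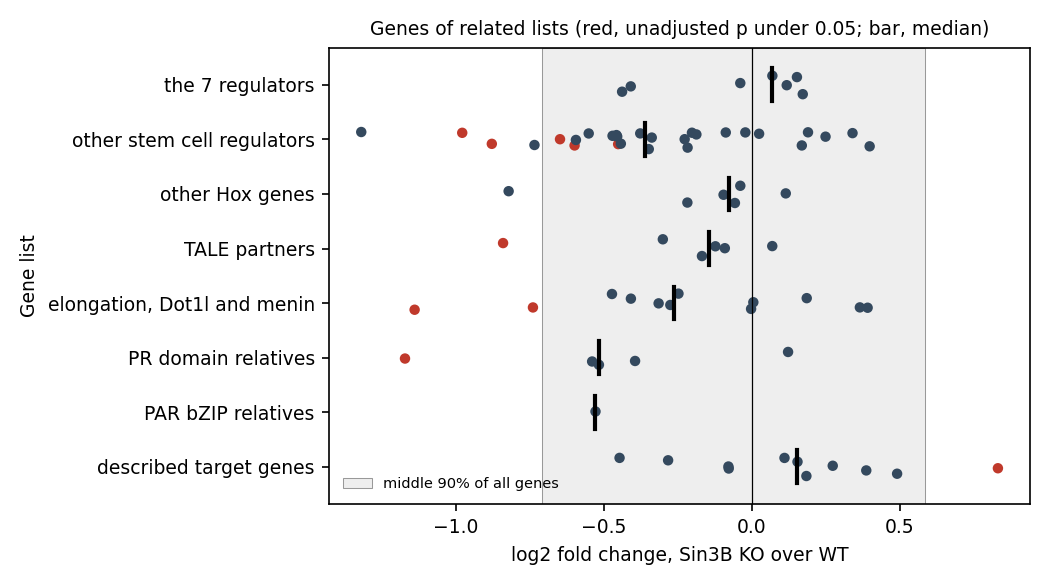
Log2 fold change of Sin3B KO over WT for each measured gene of the related lists, with a bar at each list's median and red points for an unadjusted p under 0.05. The 7 regulators have a median of 0.07, which is below 0 without Sin3B KO 2, with equal totals and after quantile normalisation, and the other stem cell regulators one of -0.36, and the shaded band holds the middle 90% of all genes.

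Of 12 genes described as bound or controlled by Hoxa9, Meis1, Mecom or Prdm16, 11 are in the table and 0 passed, with 7 above 0, 4 below and a median of 0.15. The median was 0.47 without WT 1 and -0.28 without WT 2, so its sign rests on the WT libraries. Trib2, a pseudokinase gene induced with Meis1 in leukaemia, was at 1041 and 731.3 in Sin3B KO, against 496.0 and 483.7 in WT (log2 fold change 0.83, limma, unadjusted p = 0.0111, Benjamini-Hochberg adjusted p = 0.548). Cd34, whose protein the sort selects against, was at 5623 and 5133 in Sin3B KO, against 6508 and 4945 in WT. Bcl2, the survival factor, was at 1507 and 1631 in Sin3B KO, against 2286 and 1997 in WT.

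The genes whose pattern over the 4 libraries was most like that of each regulator were found by the Euclidean distance between centred log2(value + 1) profiles. They were Mpnd and Tial1 for Hlf (distances 0.06 and 0.07), Smg1 and Reep3 for Prdm16 (0.07 and 0.08), and Thoc7 and Dhx8 for Mecom (0.01 and 0.03). For Meis1 they were Lancl2 and Sorbs2 (0.02 and 0.03), for Hoxa9 Prkd3 and Ranbp3 (0.04 and 0.04), and for Mllt3 the nearest was Tmem181b.ps (0.04). For Hoxb5 they were Atg2b and Emcn (0.04 and 0.05), and Emcn, the stem cell and endothelial sialomucin, was at 337.4 and 605.5 in Sin3B KO, against 380.8 and 439.1 in WT. With 4 libraries many genes lie as close, from 26 genes within a distance of 0.2 for Hoxb5 to 599 for Hoxa9.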

How the data were processed

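Per the labels, RNA of sorted stem cells was extracted on columns and made into polyA libraries by SMARTer, a low-input method. Bowtie, DESeq and the build mm9 are named in the submitters' processing notes. For the counting tool, nothing is given in the sources used here. A table of 9796 genes was deposited, whose library columns hold a signal, the read count divided by a size factor. In each library all values (100%) were multiples of 1 step, with a tolerance of 0.01. The lowest mean in the table is 120, so weaker genes were not analysed here, and 552 rows (5.63%) without library values were left out. Per the file headers, further columns hold a mean and, from the authors' own test, a log2 fold change with its error, a score and p-values.

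Limma 3.58.1 in R 4.3.3 was fitted to log2(value + 1) with a trended prior over all 9244 genes, two-sided, as Sin3B KO over WT, with Benjamini-Hochberg adjustment and a threshold of 0.05. Fold changes are on that scale. Reads per gene are values divided by the step. The 7 genes and the lists were chosen with earlier results of these data known. Named list genes are those with an unadjusted p under 0.05 and the 2 most abundant of each list; some genes that this rule takes are not reported here. Exon lengths and overlaps came from GENCODE M21 through Ensembl identifiers, and promoter sequences from RefSeq on GRCm38.p6, a build other than the authors'. Motifs were searched on both strands in the 250 bases before the start. Motif matches are descriptions only. Alternatives were 3 scalings, pseudocounts of 0.1 and 5, a mean of at least 500, leaving out each library, and a replicate block.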

Additional observations from a re-analysis of the deposited data

How the results depend on the processing

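Of the 7 genes, 0 passed under every alternative run. Over all genes 0 passed under other pseudocounts, scalings and the filter, and between 0 and 1 with a library left out (1 without Sin3B KO 2 and 1 without WT 2). A replicate block on the titles' numbers gave 27 genes, none of the 7 but Sin3b among them (-1.25, limma, Benjamini-Hochberg adjusted p = 0.0282). Hlf had an unadjusted limma p of 0.0337 there, where 848 of all genes were higher and 727 lower at an unadjusted p under 0.05. The file headers give library 2 another number than the titles do, the same in both genotypes. The labels leave the meaning of these numbers open. The difference between libraries 1 and 2 correlated across genes between the genotypes (r = 0.46, over genes, which are not independent replicates). The count of the 7 whose groups do not overlap was 2 with equal totals, where Hoxa9 joined Hlf, against 43.5% of all genes. It was between 2 and 5 with a library left out, where fewer values are compared. The share of all genes was between 66.0% and 77.2% there. Reversed signs were -0.015 (equal totals) and -0.081 (quantile normalisation) for Meis1 and -0.020 (quantile normalisation) for Mllt3. With a library left out the log2 fold change ranged from -0.057 to 0.20 for Meis1, from -0.086 to 0.0085 for Hoxa9, from -0.25 to 0.59 for Hoxb5 and from -0.14 to 0.37 for Mllt3. The cause was not tested. Where an arm keeps 1 library, that library is assumed to vary like the others. Hoxb5, with a mean under 500, has no value under that filter. The 2 count-model alternatives were not run, although the values divide into whole steps, so limma was the only test. With 2 libraries a group, the spread between libraries and not the reads (at least 249 for each of the 7 genes) limits precision.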

Other observations

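Of 12 surface and signalling marker genes of long-term stem cells, 11 are in the table and 0 passed, with 7 above 0 and 4 below, and groups that did not overlap in 2 higher and 2 lower in Sin3B KO (44.1% of all genes had groups that did not overlap). Procr, the endothelial protein C receptor, was at 2490 and 3392 in Sin3B KO, against 2050 and 2964 in WT, and Slamf1 (CD150) at 892.9 and 1191 in Sin3B KO, against 678.4 and 971.3 in WT. Fgd5, a guanine nucleotide exchange factor restricted to stem cells in marrow, was at 256.6 and 643.0 in Sin3B KO, against 710.3 and 1240 in WT (log2 fold change -1.21, limma, unadjusted p = 0.0233, Benjamini-Hochberg adjusted p = 0.548). Its groups do not overlap, and the difference did not pass over all genes.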
